A study of Rattus norvegicus with 11 samples.

Results

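Expression of 5 genes of microglia and complement was followed in the retinas of 11 female rats, with 1 RNA library per animal. The genes were chosen by name for what they encode: C3 (ENSRNOG00000046834), Itgam (ENSRNOG00000019728), Tyrobp (ENSRNOG00000020845), Aif1 (ENSRNOG00000000853) and Cd68 (ENSRNOG00000037563). Earlier results of these data were known when the genes were chosen. The table holds identifiers alone, and these pairings of identifier and symbol could not be checked against it. All 5 were present among the 12037 genes of the table, and none was lost to the filter on low counts, which left 12031 genes.

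Hemizygous P23H-1 rats, which carry a transgene for a mutant rhodopsin and came from a cross of transgenic line 1 with Long Evans animals, received intravitreal injections in both eyes. The P23H DMSO group (n = 5) received DMSO, the solvent, and the P23H halofantrine group (n = 4) received halofantrine, a drug developed against malaria. The injected volume was 5 µL, and the labels give the concentration only as a range of 20 to 100 µM. The wild-type group (n = 2) was untreated and came from a cross labelled SDxLE, where the P23H rats were labelled P23HxLE, so that genotype, cross and injection cannot be told apart in any comparison with wild type. Titles of the wild-type samples end in L and those of all P23H samples in R, which cannot be separated from genotype either. Animal numbers of the halofantrine group all lay below those of the DMSO group, so that an order of animals cannot be separated from treatment. The age at collection of these retinas is not given in the sources used here. The transgene is that of a single line, and hemizygous animals keep their own rhodopsin genes.

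Microglia are the resident macrophages of the retina. In degenerating retina they are known to move toward the photoreceptor layer and to take up dying cells. Complement is a cascade of plasma and tissue proteins that converge on C3, whose fragments coat surfaces and are bound by receptors on phagocytes. Itgam encodes CD11b, the alpha chain of complement receptor 3, which binds fragments of C3, so that C3 and Itgam stand on either side of the same contact. Tyrobp encodes DAP12, the adaptor through which TREM2 and related receptors signal in myeloid cells. Aif1 encodes IBA1, an actin-binding protein by which microglia are commonly stained, and Cd68 encodes a glycoprotein of the lysosomes of phagocytes. In whole retina, more cells of a type and more RNA per cell cannot be told apart.

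RefSeq sequence upstream of the annotated start (build GRCr8) was available for 3 of the 5 genes, C3, Itgam and Cd68. It is shown because these genes were higher in every P23H library than in wild type. The 250 bases before the start are printed 5′ to 3′ on the strand of the gene, with matches to 4 motifs in capitals.
C3, chr9:2201340-2201589, minus strand: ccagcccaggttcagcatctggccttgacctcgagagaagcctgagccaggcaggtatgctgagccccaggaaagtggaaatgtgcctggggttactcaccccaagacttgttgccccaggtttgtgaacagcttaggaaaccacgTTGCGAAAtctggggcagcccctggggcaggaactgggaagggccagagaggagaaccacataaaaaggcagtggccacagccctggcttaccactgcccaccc
Itgam, chr1:192089342-192089591, plus strand: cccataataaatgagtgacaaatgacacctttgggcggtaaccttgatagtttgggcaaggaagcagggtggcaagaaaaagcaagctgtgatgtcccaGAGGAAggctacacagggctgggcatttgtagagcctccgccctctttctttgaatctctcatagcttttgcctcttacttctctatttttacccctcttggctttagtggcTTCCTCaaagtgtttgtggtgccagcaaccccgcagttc
Cd68, chr10:54882442-54882691, minus strand: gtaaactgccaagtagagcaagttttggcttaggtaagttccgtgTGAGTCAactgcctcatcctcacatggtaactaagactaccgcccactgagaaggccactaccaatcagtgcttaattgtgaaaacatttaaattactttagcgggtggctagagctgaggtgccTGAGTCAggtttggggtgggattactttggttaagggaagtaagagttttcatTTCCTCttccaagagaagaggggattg
All motifs were searched on both strands. They were chosen with these sequences in view, so the shares of windows below describe the motifs and do not measure chance. The core bound by PU.1, a factor of myeloid cells, was searched as GAGGAA, which was in 23.3% of 33469 windows of the same length. Itgam held it at 151 bases before the start and its reverse complement at 39 bases, and Cd68 held the reverse complement at 27 bases. The AP-1 motif was searched as TGANTCA, with a match in 6.34% of windows. Cd68 held it at 205 and at 80 bases before the start. The C/EBP motif was searched as TTGCGNAA, with a match in 0.729% of windows. C3 held it at 104 bases before the start. The TATA box was searched as TATAAA, which was in 12.9% of windows and in none of these 3. Besides these 4 motifs, one for NF-kB was searched in these 3 windows and had no match. Its share over all windows is not given here.

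Each library held from 11685202 to 34198536 estimated counts. Before the groups were compared, 2 libraries were set apart. That they stood apart was already known from earlier results of these data. P23H DMSO replicate 3 correlated with any other library at no more than 0.844 (r by Pearson across genes, on log2 levels), and P23H halofantrine replicate 1 at no more than 0.942, while the highest value for each of the other 9 libraries lay between 0.981 and 0.990. Results are therefore given with all 11 libraries and without these 2. The labelled tissue was not checked against markers of retinal cell types, since the identifiers of the table were not paired with symbols.

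C3, the ligand, was higher in every P23H retina than in wild type, and lower with halofantrine than with DMSO. Levels are in CPM, counts scaled to a common library total with TMM factors, which correct for differences in composition between libraries. C3 was at 7.20 and 10.4 CPM in the wild-type retinas. In the P23H DMSO group it was at 164, 184, 3242, 200 and 141 CPM. In the P23H halofantrine group it was at 30.3, 111, 132 and 98.6 CPM. Every P23H library was thus above both wild-type libraries, the lowest being 2.91 times the higher wild-type value. The DMSO and halofantrine groups did not overlap, with every halofantrine library below every DMSO library. Of all genes, 27.1% were higher in DMSO than in wild type without overlap, 26.0% were higher in halofantrine than in wild type, and 1.38% were lower in halofantrine than in DMSO.

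Itgam, which encodes a chain of the receptor for C3 fragments, had the same order of groups. It was at 2.12 and 3.48 CPM in wild type. The DMSO libraries were at 15.0, 16.9, 249, 17.3 and 15.5 CPM, and the halofantrine libraries at 7.76, 12.1, 14.3 and 9.90 CPM. Again the P23H groups did not overlap with wild type, and the halofantrine group lay below the DMSO group without overlap, although only by a narrow margin (14.3 against 15.0 CPM). Counts of Itgam were not whole in any of the 11 libraries (tolerance 1e-06), while those of the other 4 genes were whole in all of them. A fraction in a gene sum arises where reads are divided with transcripts outside the gene, so that levels of Itgam depend on that division.

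Tyrobp and Aif1 were higher in every P23H library than in wild type, but did not separate the treatments. Tyrobp, the adaptor of myeloid receptors, was at 0.767 and 1.57 CPM in wild type. It was at 9.11, 6.30, 160, 7.14 and 8.94 CPM with DMSO and at 11.1, 7.28, 8.84 and 12.9 CPM with halofantrine. The P23H groups overlapped each other, and neither overlapped wild type. Aif1, the microglial stain, was at 2.01 and 1.49 CPM in wild type. With DMSO, 4 of the 5 libraries lay between 9.46 and 9.83 CPM and P23H DMSO replicate 3 was at 157 CPM. With halofantrine, Aif1 was at 11.8, 9.65, 11.03 and 12.6 CPM, so that here too the treatments overlapped. Among the 7 P23H libraries other than those that stood apart, Aif1 spanned a factor of 1.33 from lowest to highest, the smallest factor of the 5 genes, where Tyrobp spanned 2.05, C3 2.03 and Itgam 1.74.

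Cd68, the lysosomal protein of phagocytes, rested on the fewest counts in wild type, with 8 in one library and 2 in the other (exact 95% Poisson intervals 3.45 to 15.8 and 0.242 to 7.22, which cover counting error only), or 0.472 and 0.165 CPM. Neither wild-type library reached the limit of the filter on low counts, so Cd68 was kept through its P23H libraries. The DMSO libraries were at 3.68, 1.70, 160, 2.57 and 2.14 CPM. The halofantrine libraries were at 15.2, 1.85, 0.949 and 2.59 CPM. The lowest P23H library was 2.01 times the higher wild-type library, the smallest margin of the 5 genes. Over the 7 P23H libraries other than those that stood apart, Cd68 spanned a factor of 3.88, the largest of the 5.

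**Figure D1:**
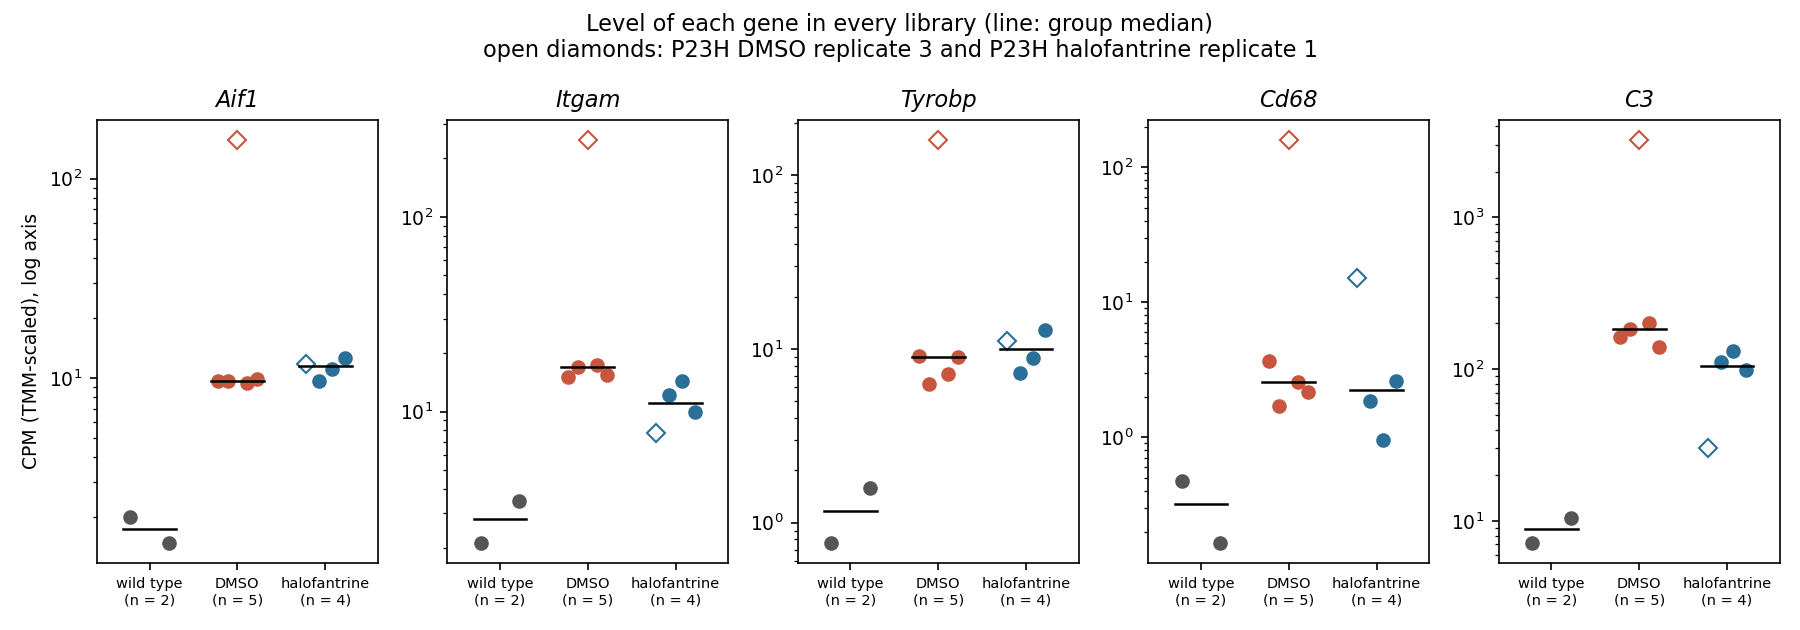
Level of each gene in CPM on a log axis, 1 point per library, for wild type (n = 2), P23H DMSO (n = 5) and P23H halofantrine (n = 4), with lines at group medians and open diamonds for P23H DMSO replicate 3 and P23H halofantrine replicate 1. Every P23H point lies above both wild-type points in all 5 panels, and P23H DMSO replicate 3 lies far above the rest, at 157 to 3242 CPM.

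Differences between P23H DMSO and wild type were tested first. With all 11 libraries, 2 of the 5 genes rose past the adjusted threshold of 0.05, C3 (6.48 ± 1.77 on the log2 scale, SE, with an adjusted p of 0.0268 in the quasi-likelihood test of edgeR) and Itgam (4.50, SE 1.45, adjusted p 0.0494). Of all genes tested, 10.9% passed in this direction. Aif1 (4.46, SE 1.47, adjusted p 0.0524 by edgeR), Tyrobp (5.06, SE 1.69, adjusted p 0.0556) and Cd68 (6.63, SE 2.82, adjusted p 0.112) did not pass. Leaving out either wild-type library ended both calls (adjusted p by edgeR 0.189 and 0.179 for C3 without replicates 1 and 2, and 0.261 and 0.233 for Itgam), and the call of Itgam was also lost whichever halofantrine library was left out (adjusted p 0.0556 to 0.0679). Limma-voom called 0 of the 5 (adjusted p 0.107 for C3 and 0.556 for Itgam), and Itgam also missed the threshold in edgeR with RLE factors (adjusted p 0.0517), with the authors' library sizes (0.0519) and with robust dispersions (0.0655). In all 5 genes the groups did not overlap, which held for 27.1% of genes in this direction.

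These values rested on P23H DMSO replicate 3, which raised the group means and their spread together. For C3 the DMSO mean was 786 ± 1373 CPM with it (SD, n = 5) and 172 ± 25.8 CPM without it (SD, n = 4). Without that library, 4 of the 5 genes passed the adjusted threshold in the higher direction, where 14.4% of all genes did. C3 was then 18.7-fold above wild type (4.23 ± 0.542 on the log2 scale, SE, with an adjusted p of 2.60e-04 in edgeR). Aif1 rose 5.19-fold (2.38, SE 0.208, adjusted p 2.10e-05 by edgeR), Itgam 5.57-fold (adjusted p 1.36e-04 by edgeR) and Tyrobp 6.56-fold (adjusted p 3.96e-04 by edgeR). Cd68 was higher as well, at 6.87-fold and without overlap, but did not pass (2.78 on the log2 scale, SE 1.27, adjusted p 0.116 by edgeR). With P23H halofantrine replicate 1 left out as well, Cd68 also passed, at 6.80-fold (2.77 ± 0.620 on the log2 scale, SE, with an adjusted p of 0.00482 in edgeR). Thus 5 of the 5 genes passed in the higher direction, where 22.0% of all genes did. C3 stood out from the others in size in this fit, at 18.8-fold with an SE of 0.217 on the log2 scale, where the other 4 lay between 5.17-fold and 6.80-fold. P23H halofantrine replicate 1 is in neither group compared here and holds an outlying value of Cd68. Its removal acted only through the shared estimate of spread and the scaling. The calls without these libraries were not repeated with a wild-type library left out.

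The halofantrine group was compared with the same 2 wild-type libraries. With all 11 libraries, 0 of the 5 genes passed the adjusted threshold in edgeR's quasi-likelihood test, where 5.55% of all genes passed in the higher direction. At an unadjusted p under 0.05, 1 of the 5 passed, C3, at 3.40 ± 1.52 on the log2 scale (SE, adjusted p 0.154 in edgeR), where 15.7% of all genes passed that looser rule and were at least 1.2-fold higher. The count by limma-voom was 0 as well, limma-voom with sample weights (chosen after the data were seen) called all 5, and DESeq2 gave no adjusted p for any of the 5. Yet the groups did not overlap in any of the 5 genes, which held for 26.0% of genes in this direction. P23H DMSO replicate 3 entered this comparison only through the shared estimate of spread and the scaling. Without it, 5 of the 5 genes passed the adjusted threshold in the higher direction, where 14.0% of all genes did. C3 was 10.2-fold above wild type (3.35 ± 0.520 on the log2 scale, SE, with an adjusted p of 9.21e-04 in edgeR), Tyrobp 8.49-fold (adjusted p 1.99e-04 by edgeR), Aif1 6.14-fold (adjusted p 1.27e-05 by edgeR) and Itgam 3.83-fold (adjusted p 6.40e-04 by edgeR). Cd68 was 14.8-fold above wild type (adjusted p 0.0373 by edgeR), but this came down to 5.03-fold (adjusted p 0.0153 by edgeR) without P23H halofantrine replicate 1. In that fit of 9 libraries 5 of the 5 genes passed in the higher direction, where 22.3% of all genes did, and C3 was at 12.6-fold. These calls were likewise not repeated with a wild-type library left out.

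Halofantrine was then set against DMSO within the P23H retinas. With all 11 libraries, 0 of the 5 genes passed the adjusted threshold in edgeR's quasi-likelihood test, where 1 gene in all passed (0.00831% higher and 0% lower). The counts by limma-voom, with and without sample weights, were 0 as well, and DESeq2 again gave no adjusted p for these genes. At an unadjusted p under 0.05, 2 of the 5 passed, C3 and Itgam, both lower by at least 1.2-fold, where 3.79% of all genes were. C3 had a log2 fold change of -3.08 (SE 1.07, unadjusted p 0.0150, adjusted p 0.434 by edgeR) and Itgam one of -2.51 (SE 0.934, unadjusted p 0.0214, adjusted p 0.434 by edgeR). They were also the genes whose halofantrine and DMSO values did not overlap, which held for 1.38% of genes in the lower direction.

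Much of the size of these differences came from P23H DMSO replicate 3. Without it, the log2 fold change of C3 was -0.87 (SE 0.342, unadjusted p 0.0268, adjusted p 0.275 by edgeR), and that of Itgam was -0.54 (SE 0.194, unadjusted p 0.0178, adjusted p 0.242 by edgeR). Without P23H halofantrine replicate 1 as well, C3 was at -0.58 (SE 0.145, unadjusted p 0.00238, adjusted p 0.186 by edgeR), or 0.670 of the DMSO level, and Itgam at -0.40 (SE 0.158, unadjusted p 0.0294, adjusted p 0.235 by edgeR). In these 9 libraries C3 was 172 ± 25.8 CPM with DMSO (SD, n = 4) and 114 ± 16.7 CPM with halofantrine (SD, n = 3), and the groups did not overlap, which held for 5.51% of genes in the lower direction. Neither gene passed the adjusted threshold in any of these fits.

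Aif1, Tyrobp and Cd68 had no stable direction between halofantrine and DMSO. Aif1 was at -1.79 on the log2 scale (SE 0.908, adjusted p 0.483 by edgeR) with all libraries and at 0.22 (SE 0.138, adjusted p 0.416 by edgeR) in the 9 libraries. Tyrobp went from -1.93 (SE 1.00, adjusted p 0.489 by edgeR) to 0.32 (SE 0.242, adjusted p 0.504 by edgeR). Cd68 was at -2.69 (SE 1.52, adjusted p 0.518 by edgeR) with all libraries, at 1.11 (SE 0.712, adjusted p 0.508 by edgeR) without P23H DMSO replicate 3 alone, and at -0.44 (SE 0.387, adjusted p 0.572 by edgeR) without both libraries. Values of these 3 genes overlapped between the treatments in each of these fits.

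**Figure D2:**
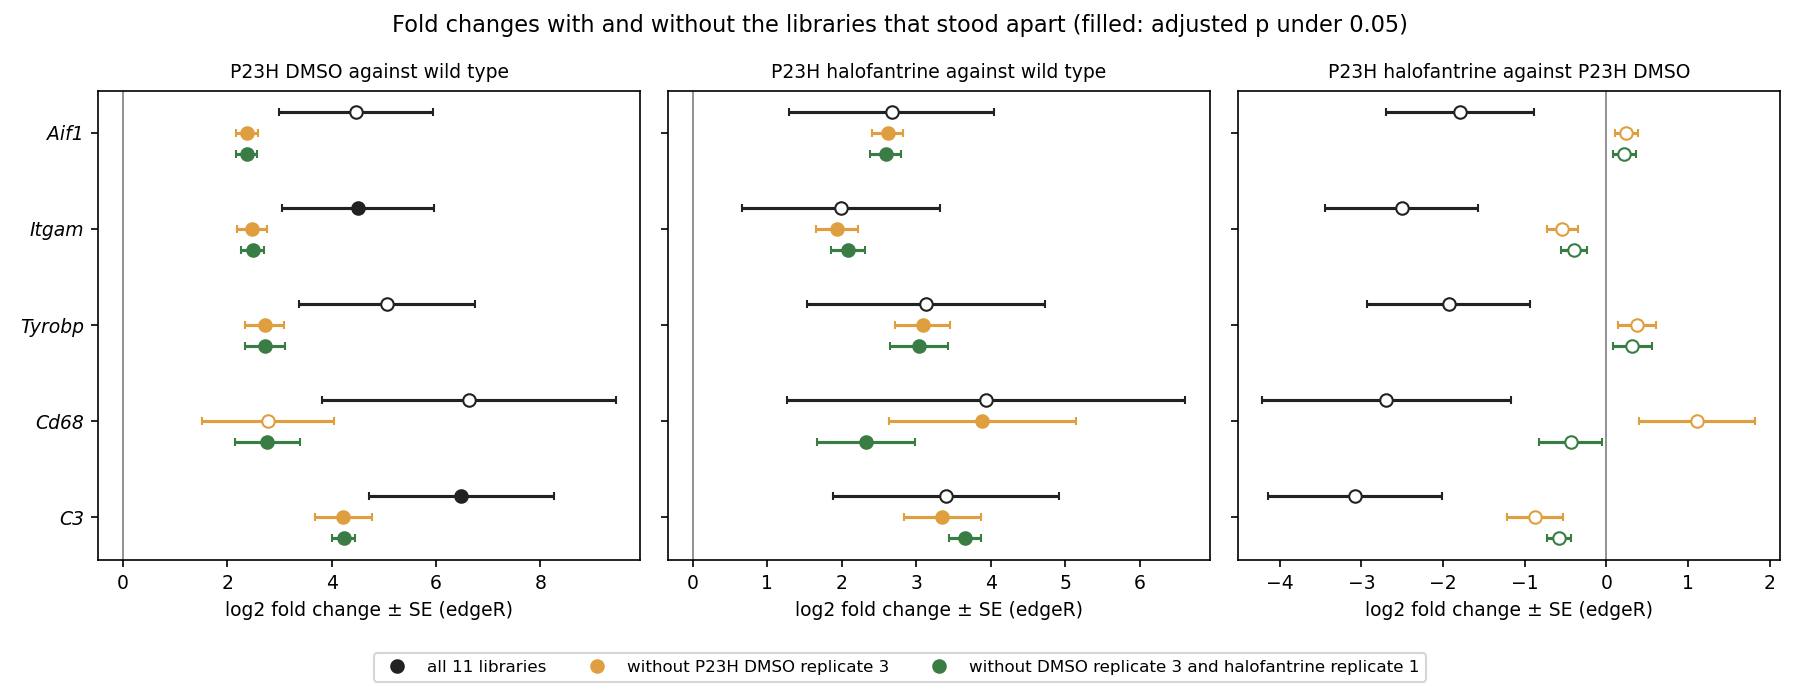
Log2 fold change of each gene (edgeR, bars are SE) in the 3 comparisons, with all 11 libraries, without P23H DMSO replicate 3, and without that library and P23H halofantrine replicate 1, with filled points for an adjusted p under 0.05. Against wild type all values are above 0, with smaller errors once P23H DMSO replicate 3 is left out, and in halofantrine against DMSO no point is filled.

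How far P23H DMSO replicate 3 departed from its group was measured against all genes. Its level of Cd68 was 63.4 times the mean of the other 4 DMSO libraries. The factor was 20.3 for Tyrobp, 18.8 for C3, 16.2 for Aif1 and 15.4 for Itgam. Ranked among 12031 genes by the log2 difference (pseudocount 0.5 CPM), Cd68 was at place 19 from the top, Tyrobp at 62, C3 at 66, Aif1 at 87 and Itgam at 93. All 5 were among the 194 genes (1.61% of those tested) that exceeded the others by over 8-fold. Together the 5 genes took 0.388% of the counts of this library, where the other DMSO libraries gave them 0.0178% to 0.0239% and the wild-type libraries 0.00117% and 0.00162%. The total of this library, 21066605 counts, was within the range of the other libraries. The part of other cell types in this departure was not tested, since their markers were not analysed here.

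In P23H halofantrine replicate 1 the 5 genes were split. Over all genes, 25 exceeded the other libraries of its group by over 8-fold with the pseudocount of 0.5 CPM, and 13 of them (52% of this list and 6.70% of the list of 194) were also among those of P23H DMSO replicate 3, with none of the 5 genes in both lists. Its level of Cd68 was 8.44 times the mean of the other 3 halofantrine libraries, at place 29 from the top and under 8-fold once the pseudocount was added. Its level of C3 was 0.266 of their mean, at place 12011 of 12031 and so among the lowest. Itgam was at 0.641 of their mean, while Aif1 and Tyrobp were close to it, at 1.06 and 1.15 times. Here Cd68 and C3 thus lay at opposite ends of the ranking, where the DMSO library just described had both high.

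**Figure D3:**
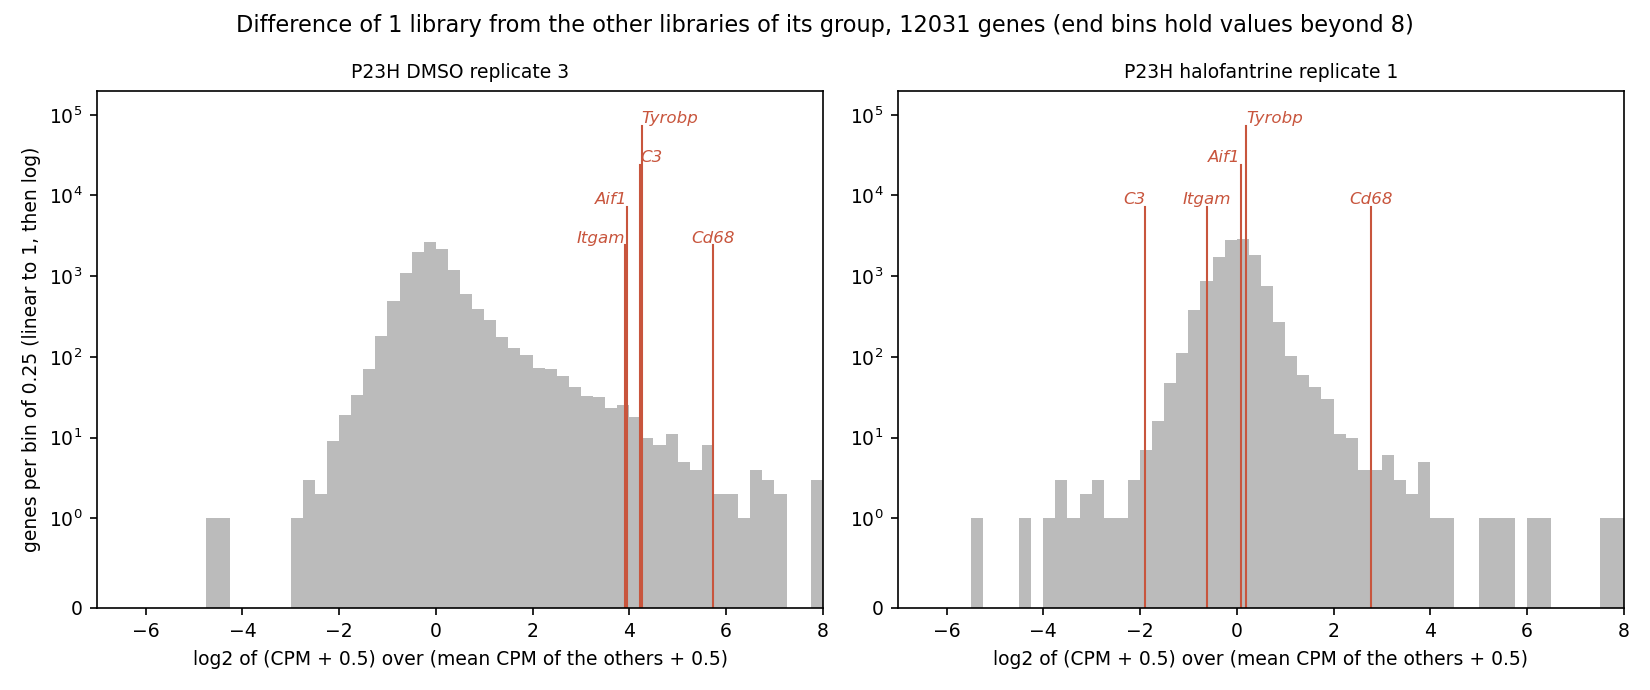
Histograms of the log2 difference of P23H DMSO replicate 3 (left) and P23H halofantrine replicate 1 (right) from the mean of the other libraries of their group (pseudocount 0.5 CPM), over 12031 genes, with red lines at the 5 genes. On the left all 5 lines lie in the upper tail, and on the right Cd68 is in the upper tail, C3 in the lower tail and Aif1 and Tyrobp near 0.

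Ratios between the genes within a library do not depend on the scaling between libraries. They are ratios of counts, not corrected for transcript length, so only their change between libraries can be read. Tyrobp per Aif1 count was 0.650 to 1.02 in the DMSO group and 0.755 to 1.02 with halofantrine, and P23H DMSO replicate 3 was at 1.02, near the other libraries. In that library both genes were thus raised by similar factors. C3 per Itgam count was 3.37 and 3.02 in wild type, 9.10 to 13.05 with DMSO and 9.14 to 9.99 in 3 of the 4 halofantrine libraries, while P23H halofantrine replicate 1 was at 3.90. The ratio of ligand to receptor was thus higher in 8 of the 9 P23H libraries than in wild type by a wide margin, and in the other by a small one.

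C3 per Aif1 count separated the treatments. It was 3.59 and 7 in wild type. With DMSO it was 17.1, 19.0, 20.7, 21.2 and 14.3, and here P23H DMSO replicate 3, at 20.7, was within the range of its group. With halofantrine it was 2.57, 11.5, 11.9 and 7.82, and each value was below the lowest DMSO value. This ratio was chosen after its values were seen, and it was not tested. Itgam per Aif1 count also separated them, at 1.56 to 1.83 with DMSO and 0.659 to 1.30 with halofantrine. C3 per Tyrobp count did so narrowly, at 15.7 to 29.2 and 2.73 to 15.2. The other pairs of the 5 genes overlapped. C3 and Itgam each separated the treatments alone, so these ratios are no independent support. The share of all gene pairs that separate was not worked out. Cd68 per Aif1 count was 1.02 and 1.29 in the libraries that stood apart (DMSO, then halofantrine), where the other 9 libraries lay between 0.0860 and 0.383.

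**Figure D4:**
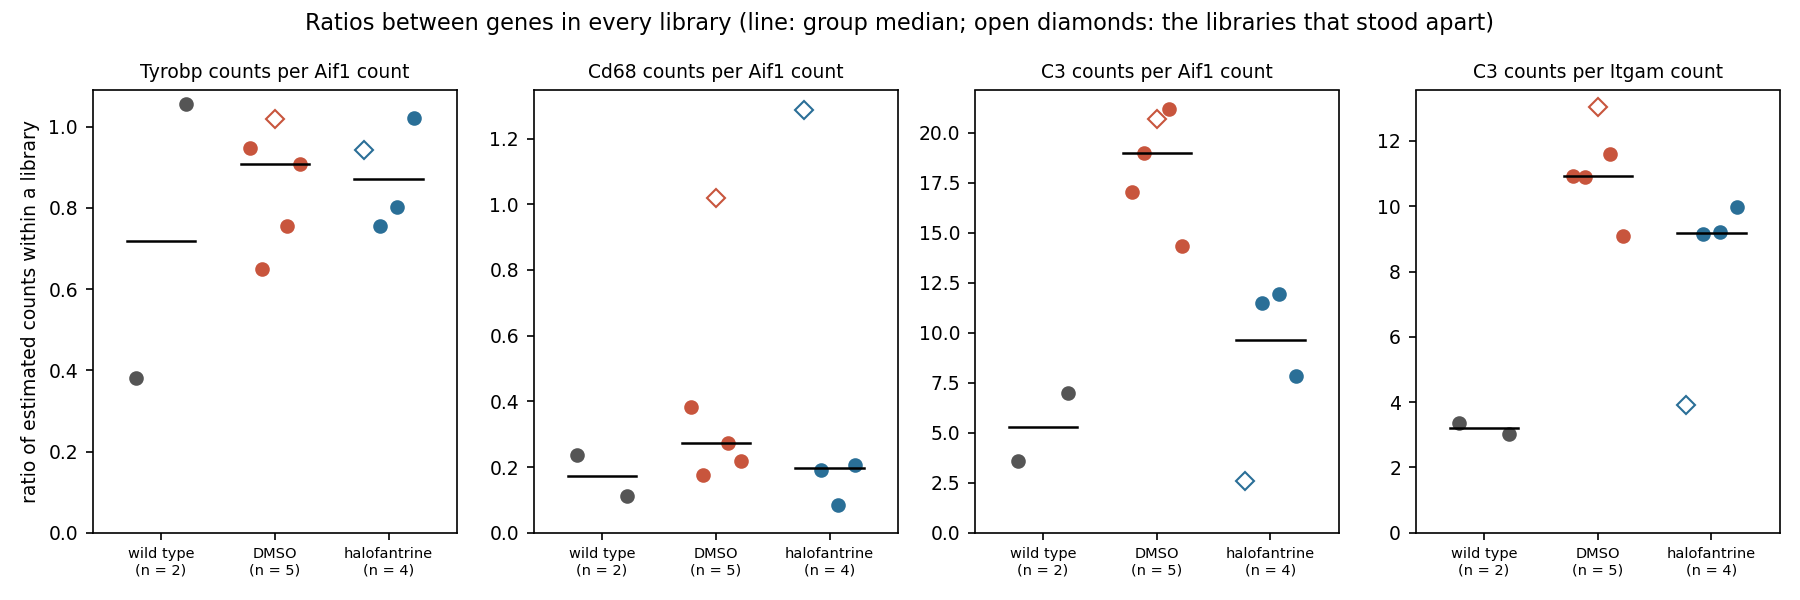
Ratio of estimated counts of 2 genes within each library, by group, with lines at group medians and open diamonds for P23H DMSO replicate 3 and P23H halofantrine replicate 1. Tyrobp per Aif1 overlaps between the P23H groups, Cd68 per Aif1 is high in the open diamonds (1.02 and 1.29), and C3 per Aif1 is 14.3 to 21.2 with DMSO and 2.57 to 11.9 with halofantrine.

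The genes whose pattern was most like each of the 5 were sought over all 12030 other genes by Pearson's r of log2 CPM, as a description. The points share the wide steps between wild type, P23H and P23H DMSO replicate 3, which raise r for many genes. Over the 11 libraries 441 to 712 genes had r over 0.9 with a given one of the 5. ENSRNOG00000014524 was most like C3 (r = 0.997) and ENSRNOG00000023428 most like Itgam (r = 0.995). Over the 9 libraries without those that stood apart, C3 was the gene most like Itgam of all 12030 (r = 0.992, rho = 0.983), and Itgam was at place 11 for C3. Over the 7 P23H libraries of these 9, where the step to wild type is absent and that between treatments remains, C3 was at place 74 for Itgam (r = 0.940, rho = 0.964). Over the same 7 libraries 12 to 465 genes had r over 0.9 with a given one of the 5. Aif1 and Tyrobp ran the other way there, with r of -0.77 and -0.74 with Itgam (rho = -0.61 and -0.64). With C3 their r was -0.71 and -0.67 (rho = -0.71 and -0.61). Between Aif1 and Tyrobp r was 0.83, but rho was only 0.46. Cd68 had an r of -0.05 with Itgam, 0.17 with C3, -0.18 with Aif1 and 0.25 with Tyrobp. In the same order its rho was -0.07, 0.04, -0.29 and 0.61.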

How the data were processed

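Poly(A)-selected RNA of 11 retinas, with an RNA integrity number of at least 9 by the labels, was sequenced from stranded libraries. According to the study's methods, the authors aligned reads to the Ensembl rat transcriptome (version 115) with kallisto and summed them per gene with tximport. The deposited gene and transcript tables hold estimated counts, which need not be whole. A deposited normalized table, a signal equal to counts divided by 1 constant per library, gave the authors' effective library sizes. A deposited table of the authors' own fold changes and p-values, and the transcript table, were not used. Versions of the tools are not given in the sources used here.

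Gene counts were rounded, filtered with filterByExpr (6 genes removed), scaled by TMM and tested with edgeR 4.0.16 (quasi-likelihood, R 4.3.3) in 1 fit of 11 libraries with group as the only term. Adjustment was by Benjamini-Hochberg over 12031 genes, with a threshold of 0.05. The SE of a log2 fold change is its size divided by the square root of F. Alternatives were other scalings, no filter, unrounded counts, DESeq2 1.42.0, limma-voom (limma 3.58.1) and fits with libraries left out. Scripts were tested on simulated data. Replicates are separate animals by their labels, numbered in accession order. Library pairs were compared by chi-square over genes, and the lowest value per degree of freedom was 6.85, so none was counted as a repeat of another.

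The members and lists were chosen with earlier results of these data known, and the 2 libraries that stand apart were known from them as well. Named genes were the 5 members and, for likeness of pattern, genes with a mean of at least 1 CPM and the highest Pearson's r (log2 CPM, prior count 2). Lists of microglial, complement and retinal cell type genes, fixed by symbol, were not analysed here, because the identifiers could not be paired with symbols. Motifs were chosen with the sequences in view.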

Additional observations from a re-analysis of the deposited data

Results flagged for a closer look

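In the P23H DMSO group, all 5 genes had a value in replicate 3 that stood further from the other 4 libraries than Dixon's 95% limit allows. Aif1 was at 157 CPM there, against 9.46 to 9.83 CPM in the others. Itgam was at 249 CPM, against 15.0 to 17.3 CPM. Tyrobp was at 160 CPM, against 6.30 to 9.11 CPM, and Cd68 was at 160 CPM, against 1.70 to 3.68 CPM. C3 was at 3242 CPM, against 141 to 200 CPM. In the P23H halofantrine group, Cd68 was set apart in the same way in replicate 1, at 15.2 CPM against 0.949 to 2.59 CPM. Of 10 groups of values examined, 6 held such a value, where chance gives 1 in 20, or 0.5 of 10. The flags are not independent, since 5 of them come from 1 library. Both libraries were also known beforehand to stand apart, and the limit was applied to CPM without logs. The count of flags is thus a description and does not measure chance.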

How the results depend on the processing

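No paired analysis was possible because replicate numbers follow accession order and pair no animals across groups. The values below are log2 fold changes in the order Aif1, Itgam, Tyrobp, Cd68, C3 unless a gene is named. Limma-voom with sample weights and robust dispersions were chosen after seeing the data.

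For P23H DMSO against wild type, Aif1 (4.54) and Tyrobp (5.13) passed the threshold with plain totals. Aif1, Tyrobp and Cd68 passed in the 9 libraries (2.37, 2.72 and 2.77) and with sample weights (2.45, 2.84 and 3.06). Itgam lost its call with RLE factors (4.50), the authors' library sizes (4.49), limma-voom (3.41) and robust dispersions (4.50), with adjusted p 0.0517, 0.0519, 0.556 and 0.0655. C3 lost its call with limma-voom (5.23, adjusted p 0.107). For halofantrine against wild type, all 5 passed in the 9 libraries (2.59, 2.09, 3.04, 2.33 and 3.65) and with sample weights (2.63, 2.15, 3.13, 2.58 and 3.68). For halofantrine against DMSO, the sign turned in the 9 libraries and with sample weights for Aif1 (0.22 and 0.18) and Tyrobp (0.32 and 0.29). Of 140 values of single genes under the alternatives that leave out no single replicate, 113 kept direction and side of the threshold. Beyond the make-up of each alternative, the cause was not tested.

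Leaving out 1 library at a time gave ranges of 2.38 to 4.72, 2.48 to 4.87, 2.71 to 5.62, 2.78 to 7.61 and 4.23 to 6.76 for DMSO against wild type, each lowest without P23H DMSO replicate 3. For halofantrine against wild type the ranges were 2.47 to 2.88, 1.62 to 2.35, 2.63 to 3.68, 2.34 to 4.89 and 3.12 to 3.67. For halofantrine against DMSO they were -2.05 to 0.24, -2.77 to -0.54, -2.22 to 0.37, -4.26 to 1.11 and -3.36 to -0.87, each highest without P23H DMSO replicate 3. Where a wild-type library was left out, the other was assumed to vary like the remaining groups.

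The number of genes called for DMSO against wild type was 2548, and it was 5387 in the 9 libraries, 7207 with sample weights and 519 (without wild-type replicate 2) to 3646 (without P23H DMSO replicate 3) with 1 library left out. For halofantrine against wild type it was 1580, and it was 2491 by DESeq2, 1024 by limma-voom, 5472 in the 9 libraries, 6622 with sample weights and 211 to 3588 with the same libraries left out. For halofantrine against DMSO it was 1, and it was 34 by DESeq2, 2 in the 9 libraries, 0 with the P23H libraries alone, 742 with sample weights and 0 to 2 with 1 library left out. In the 9 libraries the genes with r over 0.9 numbered 1137 for Aif1, 1148 for Itgam and 1323 for C3, where the 11 libraries gave 712, 640 and 511. DESeq2 gave no adjusted p for 15 of the 15 values of the 5 genes, so these are not set against the others.

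With 2 wild-type libraries and 10 counts of Cd68 in them, the size of the Cd68 difference is poorly fixed. The lists fixed by symbol were not run.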
